A study of Mus musculus with 3 samples.

Results

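The microRNAs (miRNAs, short RNAs that guide repression of messenger RNAs) described here are 7 mature strands known from the vascular endothelium: miR-296-5p, miR-139-5p, both strands of the miR-126 hairpin (miR-126-3p and miR-126-5p), both of miR-221 (miR-221-3p and miR-221-5p) and miR-222-3p. They were taken by name from the deposited table of 1251 mature miRNAs, and all 7 had a row. Small RNA sequencing was done on visceral white fat, the epididymal depot, of 3 C57BL/6J mice numbered 1, 3 and 9. All 3 mice received a high-fat diet with EPA (eicosapentaenoic acid, a fish-oil fatty acid) at 6.75%, in which fat supplied 45%, protein 20% and carbohydrate 35% of energy. They were 5 to 6 weeks old at the start, ate the diet for 11 weeks and were fasted for 4 h before the fat was taken. No group on another diet was analysed here, so the values are levels in EPA-fed mice and measure no effect of EPA. The labels do not state outright that the samples are separate animals, so the spread between these 3 samples may be biological or technical. Each p-value speaks for these 3 samples only.

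Endothelial cells line the vessels that feed fat. miR-126 is made from an intron of Egfl7, a gene of endothelial cells, and its 3p strand sustains growth-factor signalling in endothelium by repressing Spred1 and Pik3r2, inhibitors of that pathway. miR-221-3p and miR-222-3p come from paired hairpins and share their seed, the stretch that selects targets; in human endothelial cells they repress the receptor KIT and restrain vessel growth, and they are also made by smooth muscle, stromal and fat cells. miR-139-5p lies in the phosphodiesterase gene Pde2a, and miR-296-5p is known from human brain endothelium, where it lowers HGS, a protein that sends growth-factor receptors to degradation.

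The mature sequences show which of these miRNAs could share targets. They are written 5′ to 3′ from RefSeq on GRCm38.p6, the assembly of mm10, with the seed, bases 2 to 8, in capitals.
miR-126-3p: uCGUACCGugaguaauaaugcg
miR-221-3p: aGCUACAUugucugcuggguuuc
miR-222-3p: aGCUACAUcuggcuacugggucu
miR-221-5p: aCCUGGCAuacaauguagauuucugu
miR-139-5p: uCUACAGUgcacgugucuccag
miR-296-5p: aGGGCCCCcccucaauccugu

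miR-221-3p and miR-222-3p were the pair with a common seed. They are each 23 bases long and identical from base 1 to base 8. Set position by position without gaps, 11 of 23 positions match (47.8%). No alignment with a gap was made, so this count is not a measure of their likeness beyond the seed. Among the 1002 listed miRNAs with a RefSeq mature sequence, miR-1928 was the one other with this seed, and it stood at the floor of the table in all 3 mice. No listed miRNA with such a sequence shared the seed of miR-126-3p, miR-221-5p, miR-139-5p or miR-296-5p. The GC content was 38.5% for miR-221-5p, 45.5% for miR-126-3p, 47.8% for miR-221-3p, 52.2% for miR-222-3p, 54.5% for miR-139-5p and 66.7% for miR-296-5p, beside a median of 47.8% over the 250 miRNAs with a sequence that were above the floor in all mice. miR-126-3p and miR-139-5p start with U, as do 42.8% of those 250, and the other 4 start with A.

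The hairpins of the 5 most abundant members are shown for the comparison of their strands, with the annotated mature strands in capitals.
Mir126a, 3p strand in capitals: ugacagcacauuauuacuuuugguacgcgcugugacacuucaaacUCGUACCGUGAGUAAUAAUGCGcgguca
Mir221, both strands in capitals: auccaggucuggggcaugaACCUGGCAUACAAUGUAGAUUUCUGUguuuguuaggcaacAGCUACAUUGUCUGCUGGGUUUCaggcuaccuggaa
Mir222, 3p strand in capitals: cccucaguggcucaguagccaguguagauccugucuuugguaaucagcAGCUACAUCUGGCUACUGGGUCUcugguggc
Mir139, both strands in capitals: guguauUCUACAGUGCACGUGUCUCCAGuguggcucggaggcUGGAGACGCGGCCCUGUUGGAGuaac

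Mir126a covers chr2:26591357-26591429 on the plus strand and lies inside Egfl7, in an intron of 8 of the 9 annotated Egfl7 transcripts that span it and in an exon of 1, and in an intron of the overlapping gene model Gm20532 on the same strand. A further hairpin, Mir126b, is annotated on the opposite strand from 26591363 to 26591420. Mir139 covers chr7:101475376-101475443 on the plus strand and lies in an intron of all 10 Pde2a transcripts that span it and of the overlapping gene model Gm45837. Mir221 (chrX:19146294-19146388) and Mir222 (chrX:19146893-19146971) lie on the minus strand with 504 bases between them, and neither overlaps another annotated gene. Mir296 (chr2:174267047-174267125, minus strand) lies 378 bases from Mir298 and also overlaps no other annotated gene.

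miR-126 was the most abundant of these miRNAs, both of its strands standing above the others in every mouse. Values are deposited log2 values of a normalized count with 10 added, so that a miRNA with no signal stands at a floor of 3.32, and counts given below are normalized counts after the 10 is taken off again. All 7 miRNAs were above the floor in 3 of 3 mice, and 5 had a mean of at least 100 normalized counts, the level asked of a miRNA before it was compared with others. Of all 1251 listed, 287 had a signal in each mouse and 194 passed that level. Mature miRNAs differ little in length (21 to 26 bases here), so the levels were compared without a length correction, though unequal capture of different sequences in library preparation is not accounted for.

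miR-126-3p stood at 13.18 log2 units in mouse 1, 13.74 in mouse 3 and 13.18 in mouse 9, which is 9269, 13665 and 9269 normalized counts. Its mean was 13.37 ± 0.32 (SD, n = 3), and it ranked 37, 30 and 37 among the 1251 miRNAs of mice 1, 3 and 9. Mouse 3 was the high one, and mice 1 and 9 were equal. miR-126-5p, the strand that in mice supports endothelial cell growth by lowering the Notch inhibitor Dlk1, stood at 12.45, 12.89 and 12.65 log2 units in mice 1, 3 and 9 (mean 12.67 ± 0.22, ranks 46, 40 and 43). Here too mouse 3 was highest, and mouse 1 was lowest.

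miR-221-3p stood at 11.75, 11.41 and 11.70 log2 units in mice 1, 3 and 9 (mean 11.62 ± 0.18, SD, n = 3), which is 3428, 2714 and 3312 normalized counts at ranks 57, 63 and 58. Its seed partner miR-222-3p stood at 11.05, 10.74 and 11.05 (mean 10.95 ± 0.18, ranks 71, 77 and 71). In both, mouse 3 was the low one. miR-221-5p, the lesser strand of its hairpin, stood at 6.43, 5.92 and 6.47 log2 units (mean 6.27 ± 0.31), or 76.4, 50.5 and 78.8 normalized counts, and mouse 3 was again lowest.

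miR-139-5p, known for restraining growth and migration of cells, stood at 10.74, 10.79 and 11.18 log2 units in mice 1, 3 and 9 (mean 10.90 ± 0.24, SD, n = 3), with ranks 77, 76 and 68. Mouse 9 was the high one. miR-296-5p was close to the floor, at 4.91, 4.66 and 3.96 log2 units, which is 20.2, 15.3 and 5.56 normalized counts (ranks 245, 254 and 283). It was lowest in mouse 9, and at this level its differences between mice cannot be set apart from counting error, because the depth of each library is unknown.

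**Figure D1:**
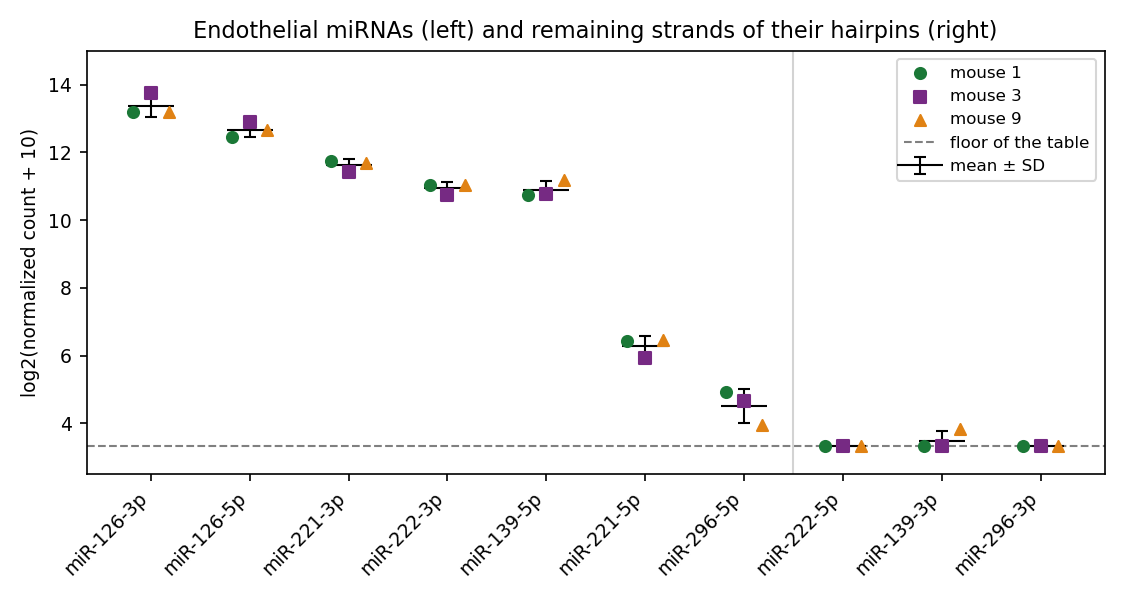
Deposited log2 value (vertical axis, log2 of the normalized count plus 10) of each endothelial miRNA and, right of the grey line, of the remaining strands of their hairpins, with 1 symbol a mouse and black bars for the mean ± SD (n = 3). The strands of miR-126 stand highest at means of 13.37 and 12.67, miR-222-3p and miR-139-5p overlap near 10.9, and miR-222-5p and miR-296-3p stand on the dashed floor of 3.32.

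Together the 7 miRNAs held 0.923%, 1.14% and 0.978% of the summed normalized counts of mice 1, 3 and 9. The deposited columns hold nearly the same set of values, so differences in share between mice follow ranks and are not measured fractions of reads. Of their own sum, both strands of miR-126 made up 67.0%, 77.3% and 66.8%. miR-126-3p and miR-126-5p together held 0.718% ± 0.145 of all counts and the seed pair miR-221-3p and miR-222-3p 0.213% ± 0.0258 (SD, n = 3). The miR-126 sum was the larger in every mouse, at 0.618%, 0.884% and 0.653% for miR-126 against 0.230%, 0.183% and 0.225% for the seed pair in mice 1, 3 and 9.

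In the order of mean level, 5 of the 6 neighbouring pairs kept the same order in all 3 mice. miR-126-3p exceeded miR-126-5p by 0.70 ± 0.16 log2 units, miR-126-5p exceeded miR-221-3p by 1.05 ± 0.40, and miR-221-3p exceeded miR-222-3p by 0.67 ± 0.02 (SD of the difference, n = 3). At the lower end miR-139-5p exceeded miR-221-5p by 4.62 ± 0.29 and miR-221-5p exceeded miR-296-5p by 1.76 ± 0.66, a value that was 2.38 with a constant of 1 in place of 10 and 1.01 with 40, since miR-296-5p is near the floor. Each of these 5 differences had a two-sided exact sign-flip permutation p of 0.25, the smallest that 3 mice allow, and 0.3 after Benjamini-Hochberg adjustment over the 6 pairs, so no pair could pass 0.05.

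The exception was miR-222-3p and miR-139-5p, whose order did not hold against the spread. miR-222-3p minus miR-139-5p was 0.31 in mouse 1, -0.05 in mouse 3 and -0.13 in mouse 9, a mean of 0.05 ± 0.23 log2 units (SD, n = 3; two-sided exact sign-flip permutation p of 1, adjusted p of 1). Without mouse 1 the mean difference was -0.088. Of the 6 differences, that of the seed partners had the smallest SD: miR-221-3p minus miR-222-3p was 0.70, 0.67 and 0.65 log2 units in mice 1, 3 and 9, a 1.60-fold excess of miR-221-3p, while each of the 2 miRNAs alone ranged over 0.34 and 0.31 log2 units.

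The hairpins differed in how far one strand exceeded its partner. The log2 ratio of the 5p to the 3p strand was tested against 0 over all 129 hairpins in which both strands had a row and the larger had a mean of at least 100 normalized counts. Of the 5 hairpins of the endothelial miRNAs 4 could be tested, miR-296 being too low, and all 4 passed limma's moderated test with Benjamini-Hochberg adjusted p below 0.05. That share is near the background, since 125 of 129 hairpins passed (96.9%), and for miR-139 and miR-222 it rests on a lesser strand at or near the floor. The background holds such hairpins too, among them miR-146a and miR-150. The 3p strand was higher in miR-126, miR-221 and miR-222, as in 45.7% of the hairpins tested, and the 5p strand in miR-139, as in 51.2%.

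miR-126 kept both of its strands at similar levels. Its log2 ratio of 5p to 3p was -0.73 in mouse 1, -0.85 in mouse 3 and -0.52 in mouse 9, with a mean of -0.70 (SE 0.09, n = 3; 3p higher in 3 of 3 mice; limma adjusted p 0.00463). Only 5 of the 129 hairpins had a smaller ratio in either direction, and the median size over all was 5.14. The miR-221 hairpin was near that median, at -5.34 (SE 0.08, n = 3; 3p higher in 3 of 3 mice; limma adjusted p 1.33e-06), a level of miR-221-3p about 40.6 times that of miR-221-5p on this scale. The SE printed for a ratio is its SD over the square root of n. The limma test used a moderated SE, which was 0.13 for miR-126, 0.12 for miR-221 and 0.11 for miR-139.

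For miR-139 and miR-222 the lesser strand was at or near the floor, so the ratio sets the larger strand against a near-constant value: its size follows the constant of 10, and passing the test says little beyond the larger strand being present. miR-139-3p stood at the floor in mice 1 and 3 and at 3.83 log2 units in mouse 9, and the ratio of miR-139 was 7.41 (SE 0.03, n = 3; 5p higher in 3 of 3 mice). With a constant of 1 in place of 10 it was 10.10 and with 40 it was 5.55. miR-222-5p stood at the floor in all 3 mice while miR-222-3p stood near 10.95, and neither a fold nor a p is given for it. miR-296-3p was likewise listed at the floor in every mouse.

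**Figure D2:**
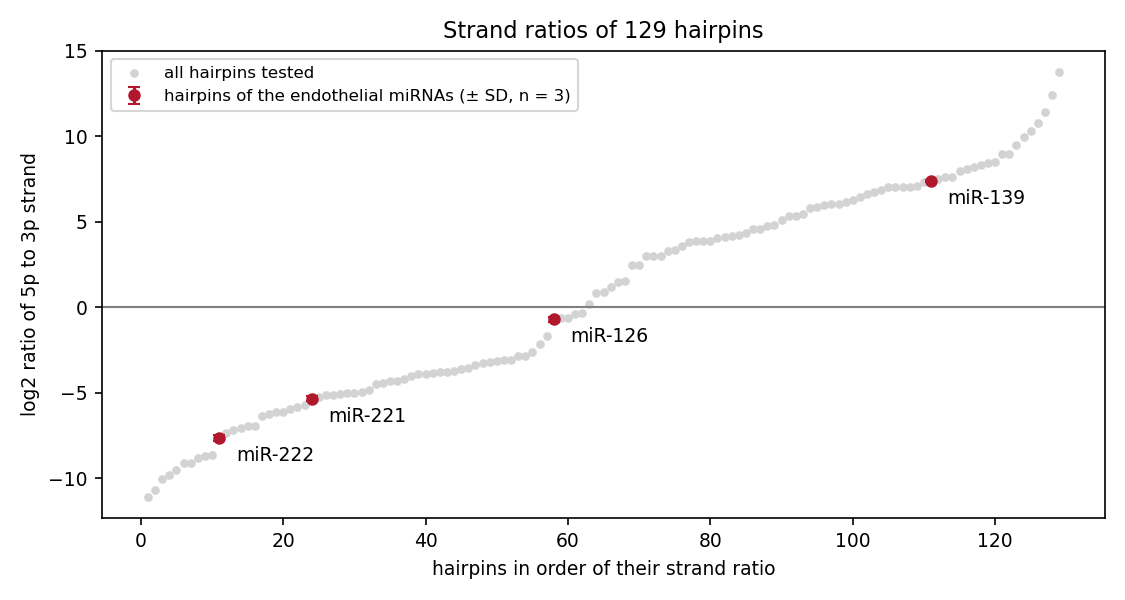
Log2 ratio of the 5p to the 3p strand (vertical axis) of the 129 hairpins tested, in order of the ratio (horizontal axis), with the hairpins of the endothelial miRNAs in red as mean ± SD (n = 3). miR-126 lies close to 0 at -0.70, miR-221 at -5.34 near the median size of 5.14, miR-222 lower and miR-139 at 7.41.

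The neighbour of miR-296 on the same strand was detected more strongly. miR-298-5p, named for its position after the values were seen, stood at 7.96, 6.89 and 7.32 log2 units in mice 1, 3 and 9, which is 2.88 ± 0.59 log2 units above miR-296-5p (SD, n = 3; higher in 3 of 3 mice), with miR-298-3p at the floor. No test was made of this pair.

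In mouse 3 the miR-126 strands lay above their means and the miR-221 and miR-222 strands below theirs. miR-126-3p lay 0.37 and miR-126-5p 0.23 log2 units above their means over the 3 mice, while miR-221-3p lay at -0.21, miR-222-3p at -0.21 and miR-221-5p at -0.36 relative to theirs. miR-126-3p minus miR-221-3p was therefore 2.33 log2 units in mouse 3, against 1.43 in mouse 1 and 1.48 in mouse 9. The same direction was found after median-ratio scaling, at 0.44 and 0.30 above the mean for miR-126-3p and miR-126-5p and at -0.14, -0.14 and -0.30 for miR-221-3p, miR-222-3p and miR-221-5p. That scaling divides mice 1, 3 and 9 by 1.02, 0.957 and 1.04, too small a change to reverse these deviations. miR-221-5p did not reach the level asked and held 50.5 normalized counts in mouse 3, so its deviation is less sure than the others.

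Among the miRNAs past the level asked, more were lowest than highest in mouse 3 as deposited, and the reverse held after median-ratio scaling. Of the 194 miRNAs past the level asked, 46 were highest in mouse 3 (23.7%) and 76 lowest (39.2%) as deposited, and 81 (41.8%) and 61 (31.4%) after median-ratio scaling. With 1 mouse standing apart no test across mice was possible. In bulk tissue, fewer cells of a type and less RNA per cell cannot be told apart. The deposited columns hold nearly the same set of values in each mouse, so a difference between mice is in essence one of rank: miR-139-5p in mouse 1 and miR-222-3p in mouse 3 both ranked 77 and both held 10.74.

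The lists for other cell types showed no common pattern over the mice. The summed share of 7 epithelial miRNAs was 0.0692%, 0.157% and 0.0378% in mice 1, 3 and 9, that of 4 adipocyte-enriched miRNAs 4.11%, 5.84% and 2.97%, and that of 6 striated muscle miRNAs 0.163%, 3.57% and 2.79%, each highest in mouse 3. The muscle sum was almost wholly miR-133a-3p (11.94, 16.38 and 16.02 log2 units), with miR-1a-3p at 3.32, 5.53 and 3.44. In the adipocyte list miR-378a-3p (16.02, 16.72 and 15.47) and miR-193b-3p (11.12, 11.34 and 10.34) were highest in mouse 3. Its member miR-30c-5p was equal in mice 1 and 3 (14.75, 14.75 and 14.41), and miR-365-3p was highest in mouse 9 (11.51, 11.51 and 11.60). In the epithelial list miR-205-5p was highest in mouse 3 (8.70, 11.12 and 8.04), while miR-200a-3p (6.81, 6.08 and 3.32) and miR-200b-3p (8.40, 7.73 and 4.19) were highest in mouse 1. The remaining lists were not highest in mouse 3 by summed share, which was 0.428%, 0.409% and 0.455% for the leukocyte list, 0.538%, 0.518% and 0.461% for fibroblasts, and 7.12%, 7.05% and 5.85% for smooth muscle and pericytes in mice 1, 3 and 9. It was 2.39%, 1.51% and 1.38% for the erythroid list and 12.0%, 8.94% and 10.1% for the 24 other vessel miRNAs. By median level, however, the leukocyte list was highest in mouse 3, at 9.76, 10.21 and 9.71 log2 units in mice 1, 3 and 9. The epithelial members miR-200a-3p, miR-200c-3p and miR-141-3p stood at the floor in mouse 9, and the muscle members miR-208a-3p and miR-499-5p stood at it in every mouse. The part of these lists in the pattern of miR-126 was not tested.

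**Figure D3:**
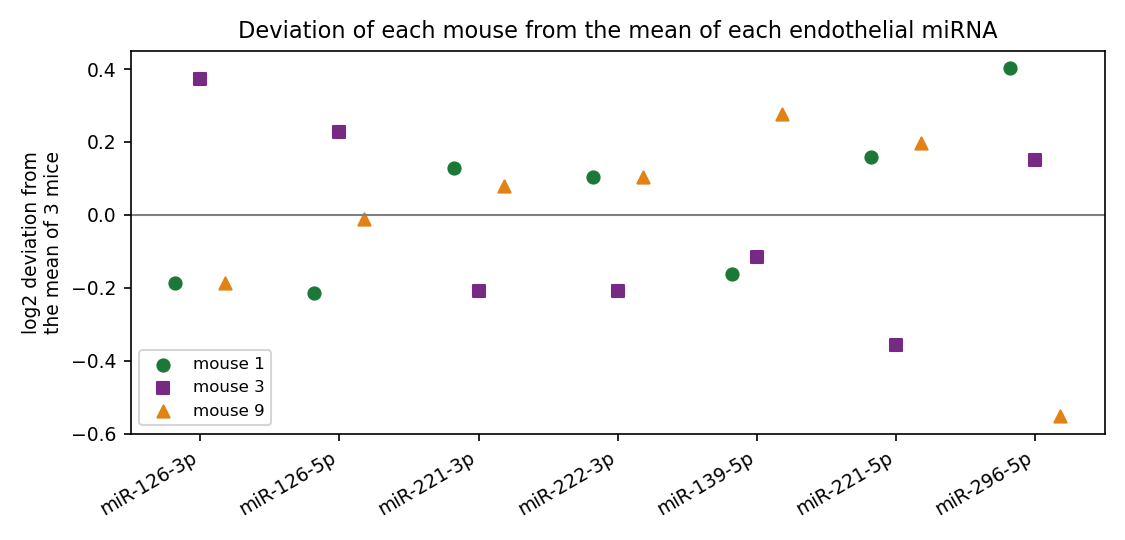
Deviation of each mouse from the mean of each endothelial miRNA (vertical axis, log2 units), with 1 symbol a mouse. Mouse 3 lies above 0 for both miR-126 strands (0.37 and 0.23) and below 0 for miR-221-3p, miR-222-3p and miR-221-5p (-0.21, -0.21 and -0.36), while miR-139-5p and miR-296-5p part mouse 9 from the others. For miR-296-5p, near the floor, this cannot be set apart from counting error.

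miR-139-5p and miR-296-5p followed neither pattern. miR-139-5p lay 0.28 log2 units above its mean in mouse 9 and at -0.16 and -0.11 in mice 1 and 3, whereas miR-296-5p lay at -0.55 in mouse 9 and at 0.40 and 0.15 in mice 1 and 3. After median-ratio scaling mouse 9 remained the highest for miR-139-5p at 0.23 and the lowest for miR-296-5p at -0.57. The factors of that scaling were too small to change this. miR-296-5p did not reach the level asked, at 20.2, 15.3 and 5.56 normalized counts in mice 1, 3 and 9. Its deviation in mouse 9 therefore cannot be set apart from counting error.

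The SDs of the endothelial miRNAs over the 3 mice ran from 0.18 log2 units for miR-222-3p to 0.49 for miR-296-5p, with a median of 0.24 over the 7 and of 0.22 over the 5 past the level asked, beside 0.22 over all 194 and 0.19 over those whose mean reached 1000 normalized counts, as that of the 5 did. Of those 194 miRNAs, 59 had a larger SD than miR-126-3p, 98 than miR-126-5p, 90 than miR-139-5p, 116 than miR-221-3p and 118 than miR-222-3p. How the members compare with the table depended on which mice were used: without mouse 3 the median SD of the 7 was 0.0349, beside 0.16 over the miRNAs past the level asked, and without mouse 1 it was 0.28, beside 0.19.

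**Figure D4:**
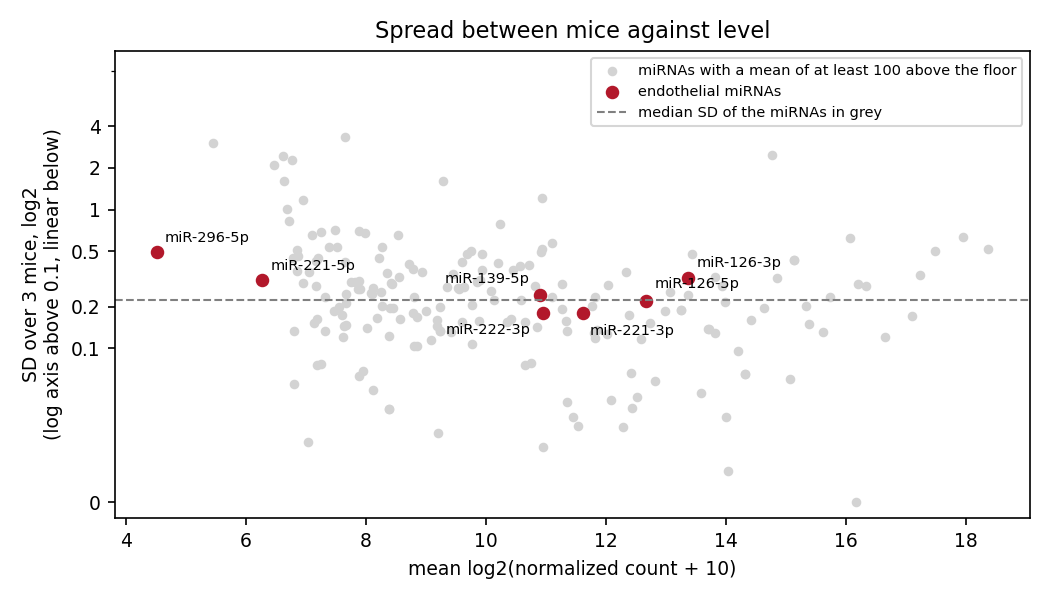
SD over the 3 mice (vertical axis, log2 units, logarithmic above 0.1 and linear below) against mean level (horizontal axis, log2 of the normalized count plus 10) for the 194 miRNAs past the level asked in grey and the endothelial miRNAs in red. The red points of the 5 more abundant miRNAs lie between 0.18 and 0.32 around the dashed median of 0.22, and miR-296-5p lies highest of the 7 at 0.49.

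The miRNAs whose deviations were most like those of a member came from many hairpins. Likeness was the largest difference between mean-centred log2 values over the 3 mice, among the 194 miRNAs. miR-872-3p (0.03) and miR-142-5p of blood cells (0.04) were nearest to miR-126-3p, and let-7f-5p (0.04) and miR-671-3p (0.04) to miR-126-5p. For miR-221-3p they were miR-326-3p (0.01) and its seed partner miR-222-3p (0.02), and for miR-222-3p they were let-7b-5p (0.02) and miR-221-3p (0.02). miR-181a-5p and let-7d-3p (0.03 each) were nearest to miR-221-5p, miR-138-5p (0.03) and miR-125b-2-3p (0.05) to miR-139-5p, and miR-1981-3p (0.10) and miR-2137 (0.14) to miR-296-5p. Over 3 mice such likeness is a description only.

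Other miRNAs with known roles in vessels were mostly present as well. Of a list of 24, 19 had a signal in each of the 3 mice and 5 stood at the floor throughout, with a median level of 9.27 log2 units, beside 10.95 for the 7 endothelial miRNAs and 3.32 for all 1251 listed, of which 888 had no signal. Over the 287 miRNAs above the floor in all mice the median was 8.02. The highest were miR-10a-5p, which in human endothelium restrains inflammatory signalling, at 17.23 ± 0.34, miR-27b-3p, which promotes vessel sprouting, at 15.07 ± 0.08, the sprouting inhibitor miR-92a-3p at 14.04 ± 0.02 and miR-23a-3p, of the miR-23, miR-27 and miR-24 cluster, at 13.37 ± 0.24 (SD, n = 3). At the floor in all mice were miR-18a-5p and miR-19a-3p of the miR-17 to miR-92a cluster, the inflammation-linked miR-155-5p, miR-503-5p and miR-217-5p. The hypoxia-induced miR-210-3p, shown as a further member of the list after its value was seen, stood at 8.14, 7.86 and 8.05 log2 units in mice 1, 3 and 9.

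Lists for other cell types, those of fat first, give a scale for the median of 10.95 of the endothelial miRNAs. The smooth muscle and pericyte list, led by miR-143-3p at 17.10 ± 0.17 and miR-145a-5p at 14.20 ± 0.10, had a median of 11.53 over 4 miRNAs, and the adipocyte list, led by miR-378a-3p at 16.07 ± 0.63 and miR-30c-5p at 14.63 ± 0.20, had 13.09 over 4. The fibroblast list, led by miR-199a-3p at 13.25 ± 0.19 and miR-199a-5p at 10.43 ± 0.16, had a median of 10.43 over 3. The leukocyte list, led by miR-150-5p at 12.81 ± 0.08 and miR-342-3p at 10.58 ± 0.22, had 9.86 over 5. The erythroid list, led by miR-486-5p at 15.13 ± 0.43 and miR-451a at 12.33 ± 0.35, had 8.92 over 4. Among cell types not typical of fat, the epithelial list, led by miR-203-3p at 9.54 ± 0.27 and miR-205-5p at 9.28 ± 1.62, had 6.47 over 7, and the striated muscle list, led by miR-133a-3p at 14.78 ± 2.47 and miR-133b-3p at 7.65 ± 3.32, had 3.79 over 6. The hepatocyte miR-122-5p stood at the floor. These lists differ in size and none was tested against another, and which cells of the fat made each miRNA was not measured. Their medians also depend on the lesser strands each holds. Such strands include miR-143-5p at 6.04 and miR-145a-3p at 8.86 in the smooth muscle and pericyte list and miR-142-3p at 3.82 in the leukocyte list. Others are miR-199a-5p at 10.43 in the fibroblast list and miR-221-5p at 6.27 in the endothelial one. The fibroblast median is the value of miR-199a-5p itself, and the smooth muscle and pericyte median lies between miR-145a-5p and its lesser strand miR-145a-3p.

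**Figure D5:**
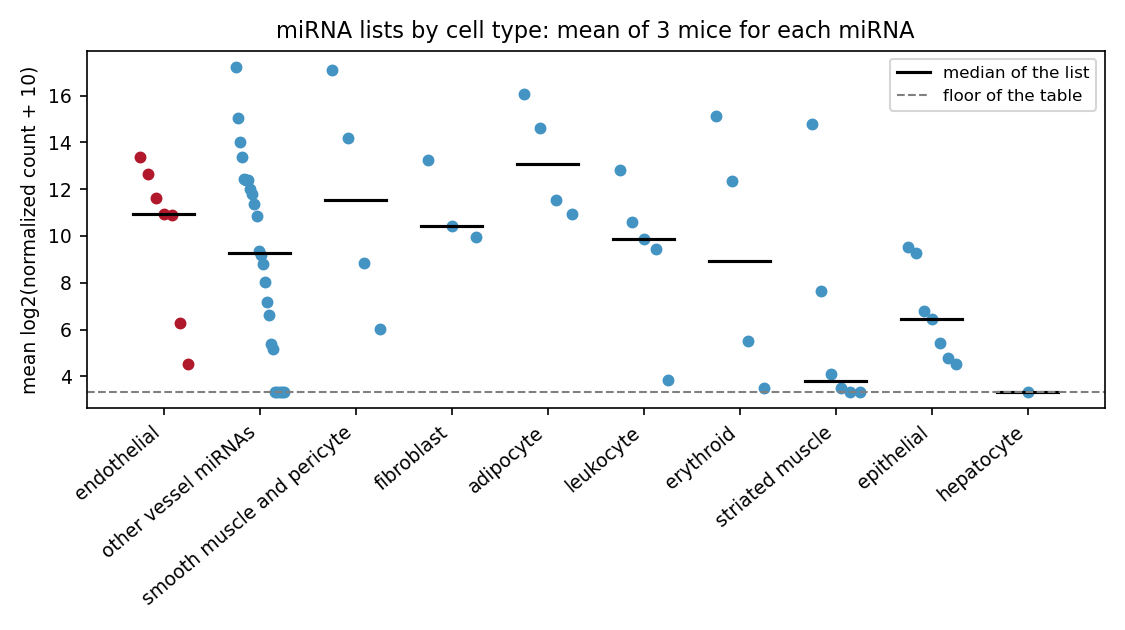
Mean level over the 3 mice (vertical axis, log2 of the normalized count plus 10) of each miRNA in the lists by cell type, with a black line at each list's median and the dashed floor of the table at 3.32. The endothelial miRNAs in red have a median of 10.95, between the smooth muscle and pericyte list at 11.53 and the fibroblast list at 10.43.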

How the data were processed

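Libraries of small RNA were made from epididymal fat with Illumina's protocol, per the labels' protocols. The deposited table holds log2 values of 1251 mature miRNAs in 3 samples of 1 group (VIS-EPA). Per the design text of the series, the authors used the Gunaratne pipeline, mapped about 13.8 M reads a sample to mm10, divided by usable reads and added 40. No aligner or miRNA annotation is named there. The lowest value is log2 of 10, and 260 values lie between 10 and 40, so 10 was taken as the constant. At 85 of the top 100 ranks the 3 columns hold equal values (within 1e-06), and library depth is unknown.

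The members and lists were chosen with earlier results of these data known. Named were the 7 members, their opposite strands, for each the 2 miRNAs of most similar pattern, the 4 highest and the undetected of the vessel list, the 2 highest of each cell type list, and miRNAs sharing a seed. Strand ratios were tested with limma 3.58.1 in R 4.3.3 (prior trend on level) over 129 of 425 hairpins with both strands listed. On simulated ratios over the same 129, it found 15 of 23 with a log2 ratio of 1, 18 of 20 with 2 and 20 of 21 with 5, and called 2 of 65 unchanged ones. The simulation used normal noise with the observed SDs shuffled over hairpins and modelled no floor. These rates therefore need not hold for the real ratios. Alternatives were constants of 1 and 40, median-ratio scaling, other filters, a prior without trend and leaving out each mouse. Sequences come from RefSeq (6 of 7 members matched, miR-126 as miR-126a), gene models from GENCODE M21.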

Additional observations from a re-analysis of the deposited data

How the results depend on the processing

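The number of hairpins past the threshold was 4 of 4 under each alternative except without a filter on level, where miR-296 entered and 5 of 5 passed. For miR-296 and miR-222 the lesser strand stood at the floor in every mouse and for miR-139 in 2 of 3, so their calls show only that the other strand was above it; miR-126 and miR-221 had both strands above the floor in all mice. The median level of the 7 miRNAs within a mouse, averaged over mice, was 11.00 log2 units and stayed between 10.92 and 11.11 log2 units, and their summed share stayed between 0.950% and 1.06%. The neighbouring pairs in a constant order numbered 5, and 6 only without mouse 1. There the added pair was in reversed order, with miR-139-5p above miR-222-3p in each mouse left. Leaving out each mouse moved the median SD of the 7 between 0.0349 (without mouse 3) and 0.277 (without mouse 1). The difference of miR-222-3p and miR-139-5p ranged from -0.088 (without mouse 1) to 0.132 (without mouse 9). With a constant of 40, miR-221-5p stood at 6.75 and miR-296-5p at 5.74; with 1, miR-296-5p stood at 3.72. The levels near the floor depend on the constant by construction. Of the 24 vessel miRNAs, 16 to 19 counted as seen at any of the limits tried. No paired analysis was possible because there is 1 group, with no second group to pair by mouse number; differences between strands or members were taken within each mouse. Depth is unknown, so no counting interval could be given for levels near the floor.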
